A study of Mus musculus with 2 samples.

Results

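Smooth muscle contraction genes encode the actins, myosin, thin filament proteins, regulatory enzymes and anchoring proteins with which the outer wall of the colon contracts, together with the transcription factors that switch them on. A list of 39 such genes was taken by symbol from the 33793 main transcript clusters of the array, which carry 30921 gene symbols. Of these members, 24 are largely restricted to smooth and related muscle and 15 are also used by many other cells. Comparing C3 KO with WT, 38 of these 39 genes differed by less than 1.5-fold, and the median over all 39 was 1.08-fold higher in C3 KO, a log2 difference of 0.11 that ran from 0.056 to 0.16 with the scaling of the arrays. The exception was Cdc42ep5, an effector of the small GTPase CDC42, which was 1.83-fold higher in C3 KO. It is among the 15 genes also used by many other cells and is none of the kinds of protein named above. The study had already listed it as upregulated in C3 KO.

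The comparison was between 1 array for WT and 1 for C3 KO, both with RNA from the colon of untreated 16-week-old FVB mice. C3 is the central component of complement. The sources used here do not say which part of the gene was deleted in the C3 KO mice. Both genotypes came from crosses of heterozygous parents. The records name both the distal colon (tissue field) and the mid colon (extraction step), and the sources used here do not say whether an array holds RNA of 1 mouse or of a pool.

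In smooth muscle, calcium entering the cell binds calmodulin and activates myosin light chain kinase, which phosphorylates the regulatory light chain and lets myosin pull on actin. Myosin phosphatase reverses this step and is itself held back by other kinases, whereas cGMP from the nitric oxide pathway favors relaxation. The thin filaments are anchored at dense bodies in the cytoplasm and at plaques on the membrane, and serum response factor (SRF) with its coactivator myocardin drives many of the genes. Peristalsis of the colon rests on this muscle, and the study concerns constipation in mice without C3. In stained sections of the mid colon, the study reported thinner mucosal and muscle layers in C3 KO than in WT mice. The question addressed here was whether the muscle wall made up a like share of the RNA in both samples. A share of RNA is another measure than layer thickness, and the relation between them was not tested.

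All values are log2 signals after RMA, a procedure that subtracts background, brings the arrays to a common distribution and summarizes the probes of each cluster. A difference is C3 KO minus WT, so that 0.58 stands for 1.5-fold and 0.26 for 1.2-fold. With 1 array per group there is no spread between mice, no test was possible and each difference is a description of these 2 arrays. Levels of different genes come from different probes and were not compared with each other. RMA values are relative to all RNA on the array, and in such bulk samples fewer muscle cells and less RNA per muscle cell cannot be told apart. The C3 cluster itself read 8.15 in WT against 6.80 in C3 KO. The 9 pancreatic acinar genes lay between 11.60 and 13.30 in WT and between 3.36 and 9.35 in C3 KO, all 9 more than 1.5-fold lower in C3 KO. The array's 5331 intron control sets had a median of 5.20 in WT and 5.41 in C3 KO, whereas the 1352 exon control sets had 8.27 and 8.31. The arrays also differed in sex-linked genes, which are named here after their values were seen. Xist, the RNA of the inactive X chromosome, had 10.35 in WT and 3.81 in C3 KO, whereas the Y-linked genes had 2.97 and 7.86 (Eif2s3y), 3.78 and 8.40 (Uty), 3.56 and 7.82 (Kdm5d) and 5.18 and 7.68 (Ddx3y). The labels give no sex, and with 1 array per group the genotype and whatever goes with these genes cannot be told apart in any difference below. What part the acinar and intron signals have in the muscle values was not tested.

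Each member had 1 cluster of 8 to 40 probes, and all 39 clusters were annotated as matching 1 locus and overlapped their gene in GRCm38.p6. The median of 23 background probe sets was 4.20 in WT and 3.99 in C3 KO, and every member lay above it in both arrays. At least 2 log2 units above it in both arrays were 37 members. The others were Ldb3 and Myl6. The cluster for Myl6, the essential light chain of smooth and non-muscle myosin, has 8 probes and lay 0.74 above that median in WT.

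**Figure D1:**
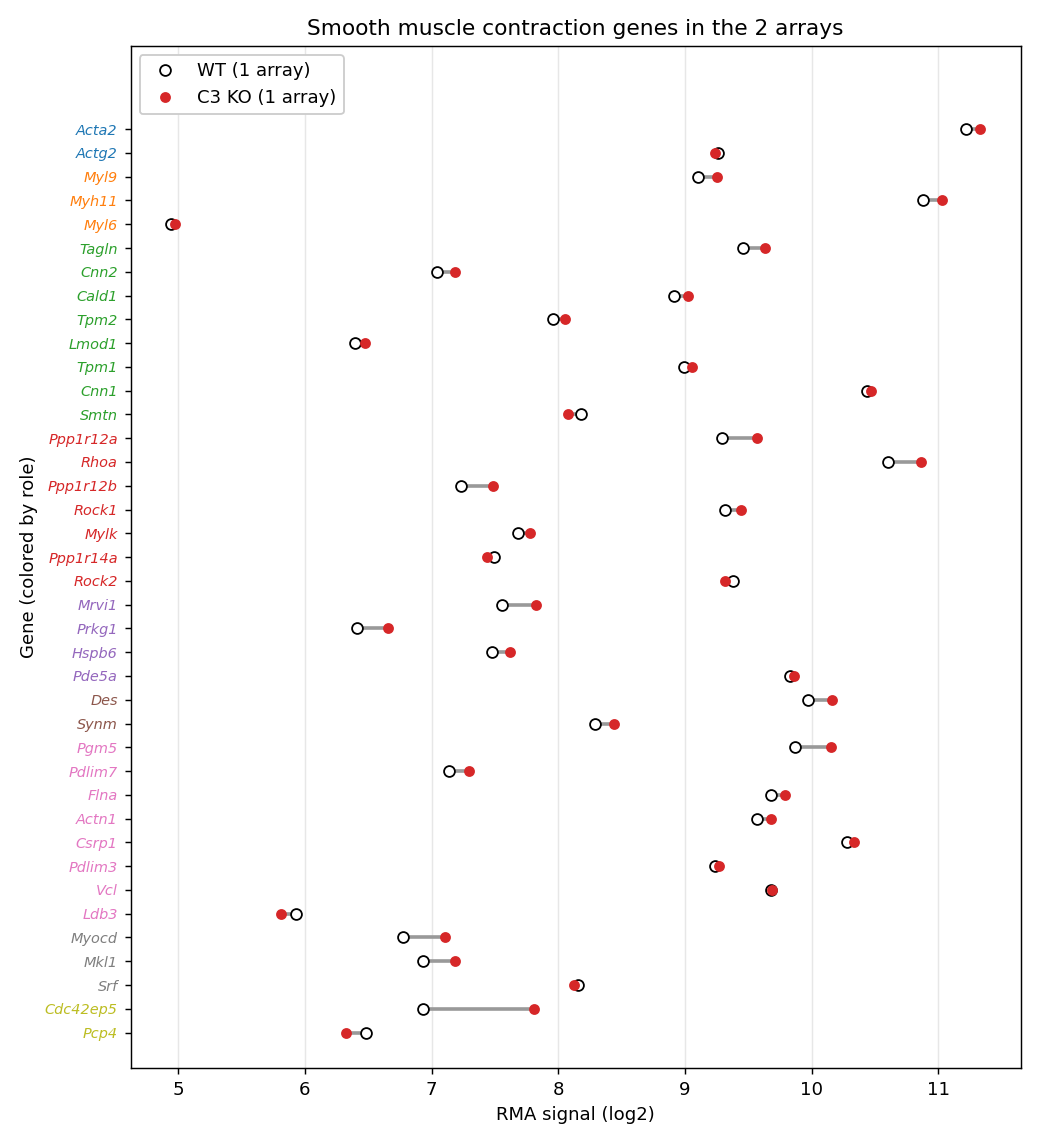
Log2 RMA signal of the 39 members in the WT array (open circles) and the C3 KO array (red circles), 1 array each, with gene names colored and grouped by role. The points of each pair lie close together for every gene except Cdc42ep5 (6.93 and 7.81), and positions of different genes are not comparable because their probes differ.

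The 2 smooth muscle actins are the bulk of the thin filament. Acta2 (chr19:34241090-34255336), alpha actin of vascular and visceral muscle, had 11.22 in WT and 11.33 in C3 KO, a difference of 0.11. Actg2 (chr6:83512905-83536265), the gamma actin that predominates in visceral muscle, had 9.26 and 9.24, a difference of -0.03. The actin genes thus differed by 1.08-fold in one direction and 1.02-fold in the other.

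The heavy chain and the regulatory light chain of the motor had nearly equal differences. Myh11 (chr16:14194527-14291408), the smooth muscle myosin heavy chain, had 10.88 in WT and 11.03 in C3 KO, and Myl9, the light chain whose phosphorylation starts contraction, had 9.10 and 9.25. Both were 1.11-fold higher in C3 KO. Myl6 had 4.94 and 4.97.

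Genes of the thin filament and its regulators, 8 in number, had differences from -0.10 to 0.17 and a median of 0.08. Tagln (chr9:45929628-45936058), which encodes the actin-bundling protein transgelin and is widely used as a smooth muscle marker, had the highest, with 9.46 in WT and 9.63 in C3 KO. The calponins bind actin and restrain myosin, and here Cnn1, the form of differentiated smooth muscle, had 10.44 and 10.46 and Cnn2, a form of many cell types, had 7.04 and 7.18. Caldesmon has a like restraining action. Its gene Cald1 had 8.91 and 9.02.
The tropomyosins, which lie along the actin filament, had 9.00 and 9.05 for Tpm1 and 7.96 and 8.05 for Tpm2. Lmod1, which encodes leiomodin and starts new actin filaments, had 6.40 and 6.47. Smtn, which encodes the actin-binding protein smoothelin of contractile muscle, was the exception in direction, with 8.18 in WT and 8.08 in C3 KO, or 1.07-fold lower.

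The enzymes that set myosin phosphorylation did not share 1 difference. Mylk, the myosin light chain kinase, had 7.68 in WT and 7.77 in C3 KO. Both targeting subunits of the opposing phosphatase were higher, Ppp1r12a (MYPT1) with 9.29 and 9.57 and Ppp1r12b (MYPT2) with 7.23 and 7.48, differences of 0.28 and 0.25. Ppp1r14a, the phosphatase inhibitor CPI-17 of smooth muscle, had 7.49 and 7.44.
Rhoa, a small GTPase that favors contraction, had 10.60 and 10.86, 1.198-fold higher in C3 KO and so just below 1.2-fold. The protein kinases Rock1 and Rock2, which it activates, lay closer to 0, with 9.32 and 9.44 for Rock1 and 9.38 and 9.32 for Rock2. Within this group the phosphatase subunits and Rhoa lay near 1.2-fold and the remaining 4 genes within 1.09-fold.

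All 4 members of the cGMP relaxation group were higher in C3 KO, with a median of 0.19, although Pde5a lay below 0 after centring by loess or on housekeeping genes. Prkg1, the cGMP-dependent protein kinase, had 6.41 in WT and 6.66 in C3 KO. Mrvi1, its substrate at the calcium store (IRAG), had 7.55 and 7.83, 1.21-fold higher. Hspb6, the small heat shock protein HSP20 that is phosphorylated during relaxation, had 7.47 and 7.62, and Pde5a, the phosphodiesterase that breaks down cGMP, had 9.83 and 9.86. Upstream of the kinase, the subunits of the nitric oxide receptor guanylate cyclase, which are in the wider smooth muscle list and are named here after their values were seen, had 7.45 and 7.66 for Gucy1a3 and 6.29 and 6.58 for Gucy1b3.

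The intermediate filament genes were close to each other. Des (chr1:75360329-75368579), which encodes desmin, had 9.97 in WT and 10.16 in C3 KO, and Synm, which encodes its partner synemin, had 8.29 and 8.44. They were 1.15-fold and 1.11-fold higher.

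Dense bodies and membrane plaques were represented by 8 genes, with differences from -0.12 to 0.28. Pgm5, which encodes aciculin, a plaque protein related to phosphoglucomutase, had 9.87 in WT and 10.15 in C3 KO and was 1.21-fold higher. Pdlim7, an adaptor with PDZ and LIM domains, had 7.13 and 7.29, and the related Pdlim3 had 9.24 and 9.27.
The widely expressed cross-linkers lay between, with 9.57 and 9.68 for Actn1 (alpha-actinin) and 9.68 and 9.79 for Flna (filamin A). Csrp1, a LIM protein of the actin skeleton, had 10.28 and 10.34. Vcl, which encodes the plaque protein vinculin, had 9.68 in both arrays. Ldb3, an adaptor best known from striated muscle, was 1.09-fold lower at 5.93 and 5.81. Of these 8 genes only Pgm5 passed 1.2-fold.

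The transcription group had the highest median difference of the groups with 3 or more genes, 0.26. Myocd (chr11:65176561-65269989), which encodes myocardin, had 6.78 in WT and 7.10 in C3 KO, the largest difference of the 24 restricted members at 0.33, or 1.26-fold. Mkl1, which encodes the related coactivator MRTF-A, had 6.93 and 7.19. Srf, the DNA-binding partner of both, had 8.16 and 8.12. The coactivators were thus higher by 0.33 and 0.26 while the factor that carries them to DNA differed by -0.04.

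SRF binds a short element named the CArG box, 10 bases with 2 C at the start, 2 G at the end and 6 bases of A or T between them. RefSeq promoters of GRCm38.p6, from 250 bases before to 50 after a start, were searched for it in 34 members. Both strands were covered, where the same pattern reads alike. A box lay in a window of 6 members, or 17.6%, beside 1.81% of the 27025 genes and 1.63% of the 32851 windows in the table. The stretches around the boxes are shown because they are the sequence feature that members of several roles share, with the box in capitals:
Srf: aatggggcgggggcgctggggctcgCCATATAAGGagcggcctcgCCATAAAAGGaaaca
Cnn2: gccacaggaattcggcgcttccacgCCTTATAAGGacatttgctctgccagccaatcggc
Vcl: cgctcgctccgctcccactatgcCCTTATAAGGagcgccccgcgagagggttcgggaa
Myl9: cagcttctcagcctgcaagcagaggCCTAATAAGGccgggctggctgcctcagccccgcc
Myl6: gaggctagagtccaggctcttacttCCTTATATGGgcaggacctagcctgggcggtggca
Ldb3: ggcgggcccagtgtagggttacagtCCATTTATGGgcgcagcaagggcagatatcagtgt

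These stretches are read 5′ to 3′ in the direction of each gene. They lie at chr17:46556210-46556269 on the minus strand for Srf, chr10:79988519-79988578 on the plus strand for Cnn2, chr14:20929148-20929205 on the plus strand for Vcl, chr2:156775278-156775337 on the plus strand for Myl9, chr10:128493025-128493084 on the minus strand for Myl6 and chr14:34588682-34588741 on the minus strand for Ldb3. Srf holds 2 boxes, and Cnn2 and Vcl hold the same 10 letters, 56 and 227 bases before the start. The 6 genes with a box differed by -0.12 to 0.15, with a median of 0.02. The 28 with a searched promoter window and no such letters had a median of 0.11. No promoter was given for Actg2, Myh11, Tagln and Myocd, and Rock1 was left out of the search. Neither group holds these genes. A match is a description of letters and shows no binding, and a window without one says nothing of the factor.

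The last 2 members belong to none of these roles. Cdc42ep5 (chr7:4151260-4164860), which binds active CDC42 and reshapes the actin and septin skeleton, had 6.93 in WT and 7.81 in C3 KO, a difference of 0.87 over 22 probes. No other member came near it, the next being Myocd at 0.33. Its paralogs, chosen after its value was seen, were mixed. Cdc42ep2 had 5.29 and 5.98, Cdc42ep1 had 6.97 and 6.70, Cdc42ep3 had 7.31 and 7.47, and Cdc42ep4 had 6.44 and 6.34. Cdc42 itself had 10.32 and 10.39. Pcp4, a small regulator of calmodulin found in neurons and smooth muscle, had the lowest difference of the 39 members, with 6.49 in WT and 6.33 in C3 KO, or 1.12-fold lower.

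**Figure D2:**
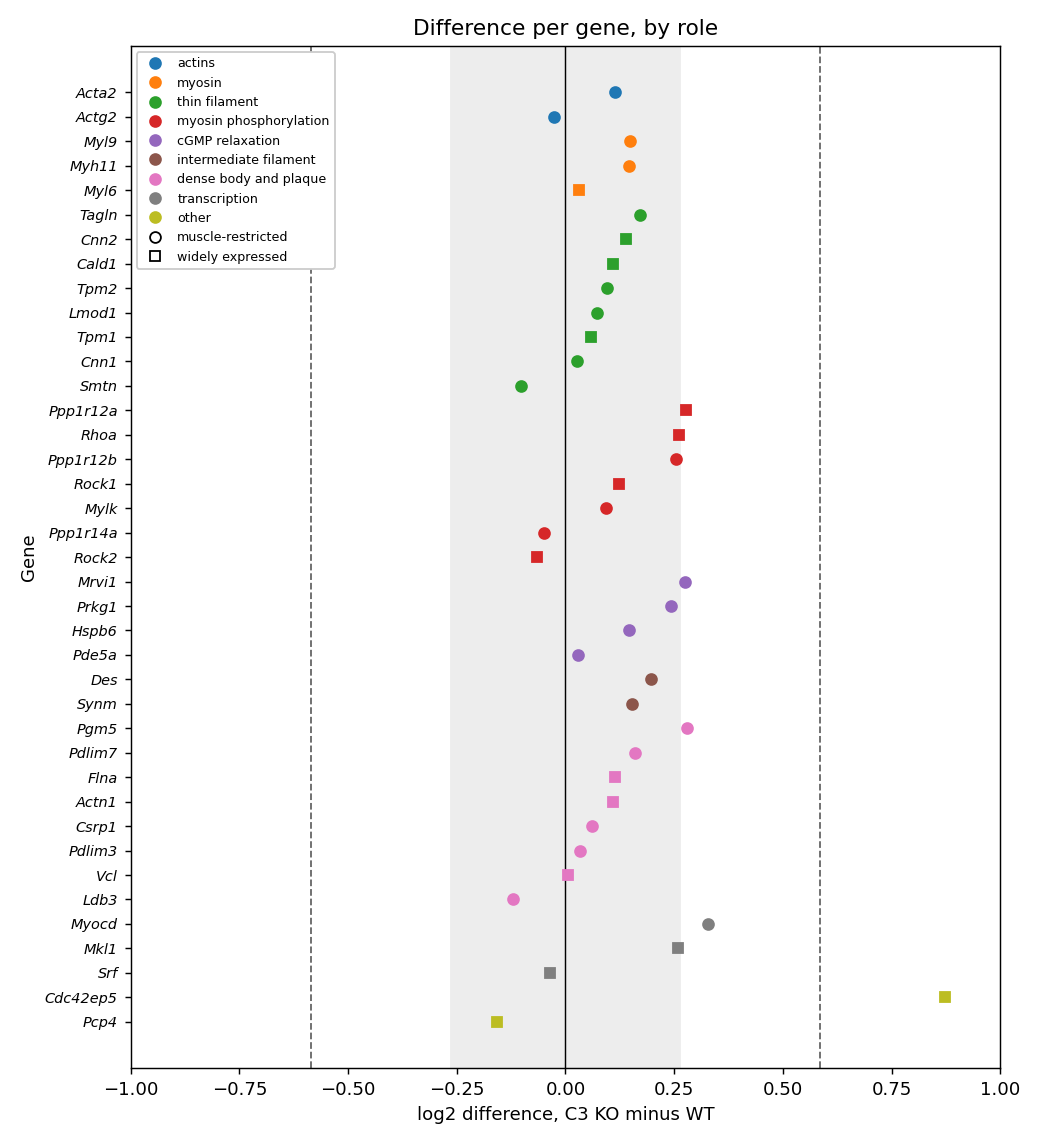
Log2 difference, C3 KO minus WT, of each member, colored by role, with circles for muscle-restricted and squares for widely expressed genes. The gray band is 1.2-fold, the dashed lines are 1.5-fold, and only Cdc42ep5 lies past 1.5-fold.

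At 1.5-fold, 1 of 39 members was called, beside 7.48% of all main clusters in either direction and 3.66% in the higher direction. Bright clusters differ less than dim ones, so the share was also taken over the 5556 main clusters whose mean signal lay between the quartiles of the members, 7.36 to 9.65. There it was 3.06% in either direction and 1.6% higher. A single member of 39 is near these shares. That member, Cdc42ep5, was already listed by the study as upregulated, and without it 0 of 38 were called.

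At 1.2-fold, 5 members were higher, namely Cdc42ep5, Myocd, Pgm5, Ppp1r12a and Mrvi1, and 0 were lower. Higher by 1.2-fold were 17.3% of all main clusters and 13.1% of those at the members' signal, and lower were 17.9% and 6.95%. The 5 of 39 are close to the share at like signal. The count depends on the scaling: it was 2 after centring by loess, by housekeeping genes or by a repeated quantile normalization, and 9 after centring on the array medians.

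Small positive differences were the rule, with 32 members above 0 and 7 below, and among the restricted members 20 above and 4 below. Above 0 were 48.5% of all main clusters and 58.3% of those at the members' signal. The 7 below 0 were Pcp4, Ldb3, Smtn, Rock2, Ppp1r14a, Srf and Actg2. Under the 8 alternatives the number above 0 ran from 27 to 34, and 7 members had either sign, namely Actg2, Cnn1, Myl6, Pde5a, Pdlim3, Srf and Vcl. Only the centrings and the repeated normalization could change a member's own difference. The median of all members was 0.11 (0.056 after centring on housekeeping genes and 0.16 after centring on array medians), that of the restricted members 0.13 and that of the widely expressed members 0.11, beside 0.00 over all main clusters and 0.04 at the members' signal. The middle 50% of the members spanned 0.15, from 0.03 to 0.18, beside 0.25 for the clusters at like signal. Those clusters cover mean signals of 7.36 to 9.65 only, whereas the members ran from 4.96 to 11.27, so the 2 spreads are not matched in signal throughout. Without Cdc42ep5 the median of the members stayed at 0.11 and the SD across genes went from 0.17 to 0.12.

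**Figure D3:**
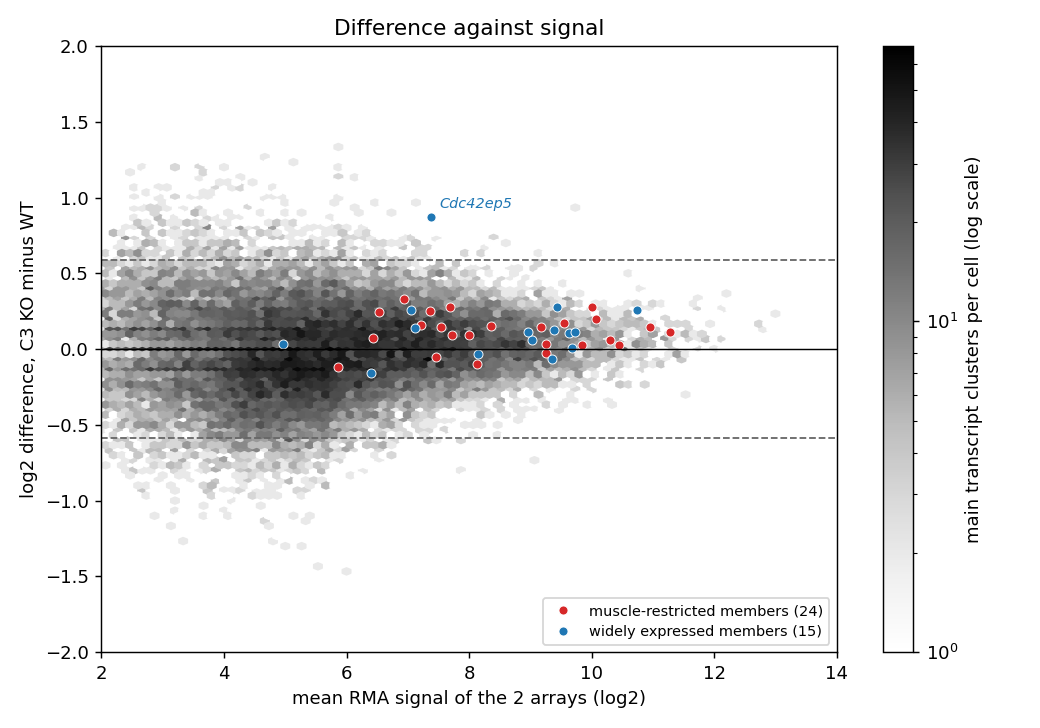
Log2 difference, C3 KO minus WT, against the mean log2 signal of the 2 arrays, with main clusters as gray cells on a log color scale (585 of 33793 clusters lie outside the axes) and members as points. Members sit in a narrow band just above 0 where clusters at the same signal spread more widely, with Cdc42ep5 alone above the dashed line of 1.5-fold.

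The muscle genes were also set against the mucosa within the same arrays. The 20 epithelial genes had a median difference of 0.05, so that the restricted muscle genes stood 0.08 above them, or 1.06-fold. Muc2, the gel-forming mucin of goblet cells, was the lowest of the epithelial list, with 13.23 in WT and 12.74 in C3 KO, and Phgr1 the highest, with 10.17 and 10.44. The epithelial list ranged from -0.49 to 0.27 and the restricted members from -0.12 to 0.33, and without replicates the distance of 0.08 between their medians has no error to be read against.

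The other cells of the muscle wall also had medians near 0. The interstitial cells of Cajal, the pacemakers between nerve and muscle, had 4 markers with a median of 0.04. Their chloride channel gene Ano1 had 10.36 in WT and 10.86 in C3 KO, 1.42-fold higher, whereas their receptor gene Kit had 9.40 and 9.26. The 3 markers of PDGFRA-positive interstitial cells had a median of 0.01, led by Pdgfra itself with 8.37 and 8.58, with P2ry1, a purine receptor gene, at 7.52 and 7.50.
Enteric neurons had 17 genes with a median of 0.12 and a range of -0.52 to 0.53. The ends were Ret, the receptor of glial cell line-derived neurotrophic factor, with 6.72 and 6.20, and Uchl1, a neuronal ubiquitin hydrolase, with 6.25 and 6.78. The 8 glial genes had a median of -0.03. Among those with a mean of at least 5, Entpd2, an enzyme that breaks down extracellular ATP, had the lowest difference, at 7.32 and 7.12. Erbb3, a neuregulin receptor, had the highest, at 10.59 and 10.87. S100b, with a mean below 5, had 4.39 and 3.73.

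Lists for cells that share markers with muscle, or surround it, also had medians near 0. Pericyte and vascular muscle genes, 10 in number, had a median of 0.12, with Cspg4, a proteoglycan of pericytes, at 6.50 and 5.88 and Kcnj8, a potassium channel, at 6.04 and 6.58. The 10 endothelial genes had a median of 0.05, from Kdr, a receptor of vascular endothelial growth factor, at 7.81 and 7.21 to Cldn5, a tight junction protein, at 5.23 and 5.91. The 10 fibroblast genes had a median of 0.07, from Mfap5, a microfibril protein, at 6.43 and 5.96 to Lum, the collagen-binding lumican, at 5.59 and 6.18.
The 6 mesothelial genes had a median of 0.14, with the transcription factor Wt1 at 5.76 and 5.33 and the uroplakin Upk3b at 6.31 and 6.58. The 12 leukocyte genes had a median of 0.11, from Emr1, the macrophage antigen F4/80, at 5.92 and 5.52 to Ptprc, the pan-leukocyte antigen CD45, at 6.99 and 7.45. Of the 16 housekeeping genes the median was 0.06, from Ppia, which encodes cyclophilin A, at 10.65 and 10.50 to Rplp0, a ribosomal protein gene, at 5.92 and 6.42. Several of these medians equal that of the muscle members to within 0.02.

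Markers of striated muscle were read as a check on the tissue. The 16 skeletal muscle genes lay between 3.70 and 6.28 in WT and between 4.04 and 6.19 in C3 KO, with a median difference of -0.05, and the 8 cardiac genes between 4.39 and 6.31 and between 3.65 and 6.32, with a median of -0.03, beside background medians of 4.20 and 3.99. Among those with a mean of at least 5, the skeletal list ran from Atp2a1 (5.35 and 5.18) to Pvalb (5.03 and 5.24) and the cardiac list from Myl2 (5.97 and 5.61) to Tnni3 (6.13 and 6.29). Of the smooth muscle markers, Acta2, Myh11, Cnn1 and Des lay at least 5.76 above the background median in each array. The others lay lower in WT, at 2.19 (Lmod1), 2.57 (Myocd), 3.97 (Smtn), 4.09 (Synm), 5.06 (Actg2) and 5.26 (Tagln) above it. Lmod1, at 6.40 in WT, was near the brightest striated markers, and levels of different genes are not comparable, so no gap between the lists is read from them.

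**Figure D4:**
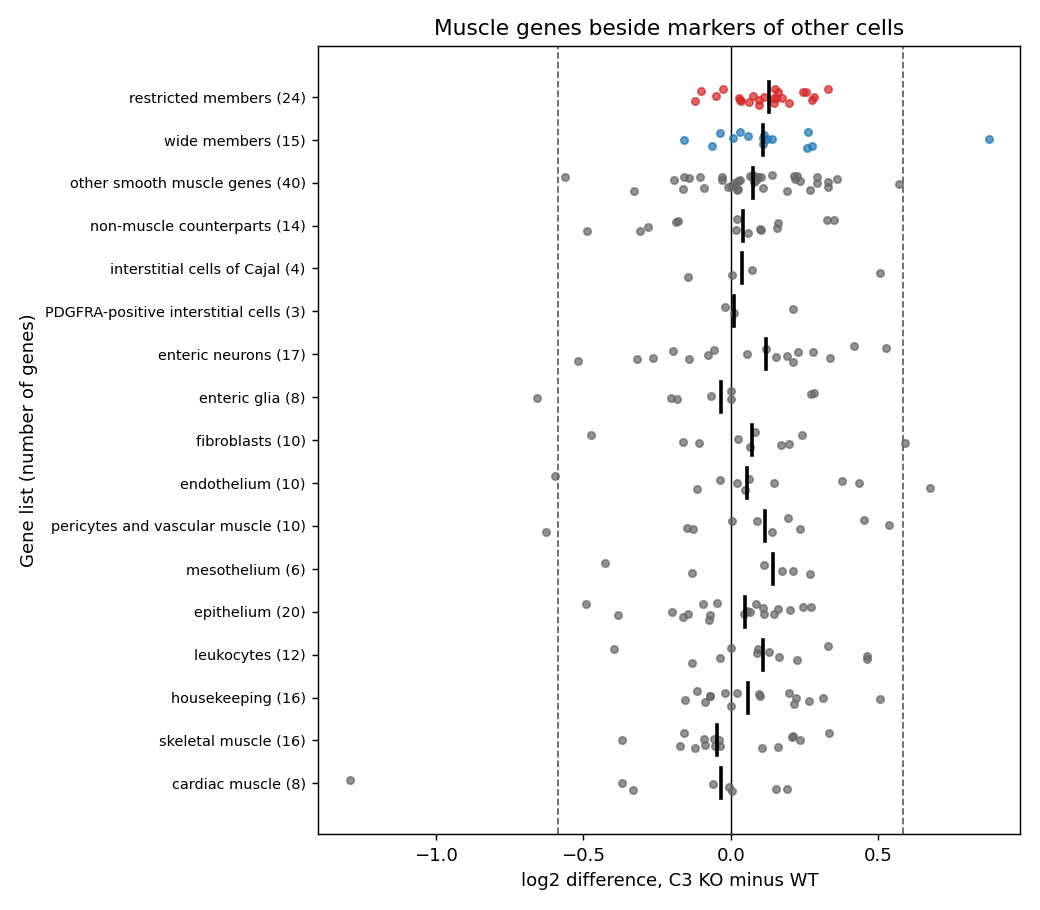
Log2 difference, C3 KO minus WT, of the genes of 17 lists, with the number of genes in parentheses and a black bar at each list's median. The restricted members are packed from -0.12 to 0.33, and the medians of all lists shown lie between -0.05 and 0.14.

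Beyond the 39 members, 40 other smooth muscle genes for calcium handling, receptors, plaques and the sarcolemma had a median of 0.08, with 28 above 0, beside 48.5% of all main clusters. Of them 0 passed 1.5-fold, beside 7.48%, while 7 were higher by 1.2-fold or more and 2 were lower by it, beside 17.3% and 17.9%. The share that was higher is near that of all main clusters. Chrm3, the muscarinic receptor that carries the main contractile signal of acetylcholine, was the lowest with 5.57 in WT and 5.01 in C3 KO, 1.48-fold lower, and Casq2, a calcium buffer of the store, the highest with 5.50 and 6.07, 1.48-fold higher. In WT both lay less than 2 log2 units above the background median of 4.20, and dim clusters differ more than bright ones.
Some other genes of this list, named after their values were seen, differed less between the arrays. They do not stand for the whole list, in which Fhl2 had 6.81 and 7.17 and Filip1l had 6.85 and 6.52. Chrm2, the more abundant muscarinic receptor of gut muscle, had 8.12 and 8.14, and Tacr2, the receptor of neurokinin A, had 7.71 and 7.93. The calcium channel Cacna1c had 6.77 and 6.86, the store channel Itpr1 had 7.57 and 7.68, and the calcium pump Atp2a2 had 10.00 and 9.90. Kcnma1, the large-conductance potassium channel that opposes contraction, had 7.07 and 6.90, and its beta subunit Kcnmb1 had 7.80 and 7.88.

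The non-muscle counterparts of the members, which share their families but are used by other cells, some widely and some not, gave 14 genes. Their median was 0.04 and their range -0.49 to 0.35. Tpm4, a cytoskeletal tropomyosin, had 8.35 in WT and 7.87 in C3 KO and was 1.40-fold lower, while Tpm1 and Tpm2 among the members were 1.04-fold and 1.07-fold higher. Myl12a, a non-muscle regulatory light chain, had 5.77 and 6.12. By 1.2-fold or more, 2 of the 14 genes were higher and 3 lower, beside 17.3% and 17.9% of all main clusters.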

How the data were processed

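Colon RNA of WT and C3 KO mice was hybridized to Mouse Gene 2.0 ST arrays, 1 per group. The authors normalized the signals at the gene level by RMA (Affymetrix Power Tools) and deposited log2 values. The series table held the same values (largest difference 0). The deposited tables of fold changes and of enrichment p-values hold the study's own comparisons and were not used. Versions of the upstream tools are not given in the sources used here.

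Main-category clusters were kept, a gene with several clusters took their mean, and C3 KO minus WT was computed. No p-value was computed, because 1 array per group leaves no error. The number of arrays limits the precision. The members, lists, thresholds and rule for named genes were chosen with earlier results of these data known. The rule names every member, C3 and, of each other list, the gene with the largest difference in each direction at a mean of at least 5. Calculations were tested on simulated data. The 7 alternative settings were centring on array medians, by loess (fraction 0.3) or on housekeeping genes, the series table, the brightest cluster, clusters that match 1 locus, and a minimum mean of 6. Quantile normalization repeated over the 33685 clusters less than 3-fold different was added after the data were seen. Python 3.11.15, pandas 2.3.3, numpy 2.4.6, statsmodels 0.14.6 and matplotlib 3.10.9 were used.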

Additional observations from a re-analysis of the deposited data

How the results depend on the processing

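Cdc42ep5 was the 1 member past 1.5-fold under every alternative, with differences from 0.82 to 0.92 under those that could change its value. The median difference of the 39 members, 0.11, was 0.16 after centring on array medians, 0.068 by loess, 0.056 on housekeeping genes and 0.080 after the quantile normalization repeated without clusters 3-fold different, which was chosen after seeing the data. In the same order, the median of the restricted members, 0.13, was 0.18, 0.076, 0.073 and 0.080, and the number of members past 1.2-fold, 5, was 9, 2, 2 and 2. With a minimum mean of 6, which left 37 members, the restricted median was 0.15 and its distance from the epithelial median, 0.08, became 0.10; that distance was also 0.10 after the repeated normalization. The series table, the brightest cluster and the clusters that match 1 locus changed none of these 5 results. They could not change a member's value, because each member had 1 cluster matching 1 locus and the series table held the same values. The minimum mean of 6 likewise left the difference of each member it kept as it was. No paired analysis was possible because each group holds 1 array. The cause of the shifts was not tested. A difference of the size found for most members could be within the spread between mice, which these arrays do not measure.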
